A study of Mus musculus with 2 samples.

Results

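The let-7 microRNA genes Mirlet7b, Mirlet7d, Mirlet7e, Mirlet7g, Mirlet7i and Mir98 were described in 2 libraries labelled as neonatal mouse calf muscle. They were chosen by gene identity, as the let-7 genes whose mature form comes from a single locus, and all 6 were found among the 2202 microRNA genes counted. The libraries, made from RNA inserts under 30 nt, came from the gastrocnemius of male B6CASTF1/J pups, hybrids of a B6 and a CAST parent, at 4 days of age. The labels give 1 group of 2 libraries, replicate 2 (animal number 4) and replicate 1 (animal number 3), as distinct biosamples that carry the same donor identifier. The labels name no treatment and no engineered allele, so every comparison is between these 2 libraries. It measures how they differ, not a condition. Counts of muscle and heart markers, given below, make the tissue label of replicate 2 uncertain. Its values may not be those of gastrocnemius.

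MicroRNAs are short RNAs that guide Argonaute proteins to messenger RNAs, mainly through the seed at bases 2 to 8. The let-7 family is known for rising as cells leave the embryonic state and for repressing growth genes such as Hmga2, Igf2bp1 and Lin28. LIN28 proteins in turn bind let-7 precursors and hold back their maturation. In skeletal muscle, let-7 is known to accumulate as myoblasts differentiate.

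The mature sequences are shown because they explain which let-7 genes can be counted separately. They are RefSeq sequences on GRCm38.p6, written 5′ to 3′ with the seed in capitals, followed by let-7a, let-7c and let-7f, which the genome encodes at more than 1 locus.
let-7b: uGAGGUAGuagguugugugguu
let-7d: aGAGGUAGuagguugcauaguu
let-7e: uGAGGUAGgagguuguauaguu
let-7g: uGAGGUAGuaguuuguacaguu
let-7i: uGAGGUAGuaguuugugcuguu
miR-98: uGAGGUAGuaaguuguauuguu
let-7a: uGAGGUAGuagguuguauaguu
let-7c: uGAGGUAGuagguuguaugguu
let-7f: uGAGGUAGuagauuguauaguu

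In the RefSeq table, 13 of 1738 mature mouse entries carry the seed GAGGUAG, with let-7c and let-7f each entered for more than 1 gene. All 6 genes share this seed, and all 6 mature forms are 22 nt long. They differ outside the seed. Counted from 1 at the 5′ end, with the base of let-7a first, let-7b carries A17G and A19G, let-7d U1A and U16C, let-7e U9G, and let-7g G12U and U18C. Let-7i carries G12U, A17G, U18C and A19U, and miR-98 carries G11A and A19U. Mature let-7b is 1 base from let-7c and let-7e is 1 base from let-7a, while the other 4 genes are 2 bases from their nearest form. No other RefSeq hairpin holds the whole mature form of any of the 6 genes (0 hairpins each). Single-base neighbours such as let-7b and let-7c could still exchange reads if mismatches were tolerated, which was not tested.

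The genes lie at 6 places in the genome (mm10, GENCODE M21). Mirlet7b is on chromosome 15, plus strand, at 85707319 to 85707403, in an exon of the noncoding gene Lncppara. Mirlet7d is on chromosome 13, minus strand, at 48536012 to 48536114, in an exon of the long noncoding gene 6720427I07Rik. Mirlet7i is on chromosome 10, minus strand, at 122985640 to 122985724, in an exon of the transcribed pseudogene D630033A02Rik. The other 3 are intronic and on the strand of their host. Mirlet7e is in Spaca6, a sperm gene (chromosome 17, 17830352 to 17830444, plus strand). Mirlet7g is in Wdr82, a subunit of histone methyltransferase complexes (chromosome 9, 106178840 to 106178927, plus strand). Mir98 is in Huwe1, a ubiquitin ligase gene (chromosome X, 151913214 to 151913321, plus strand).

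Library depth differed. Replicate 2 held 7240126 reads, of which 3073086 (42.4%) fell on microRNA genes in the sense direction, and replicate 1 held 8522350, of which 4458853 (52.3%) did. Levels are given as CPM, the counts per 1000000 of these microRNA reads. The libraries differ in content that bears on their labelled tissue. Reads of Mir206, restricted to skeletal muscle, numbered 101 in replicate 2 against 652657 in replicate 1, and those of the cardiac Mir208a 29718 against 59. The library labelled replicate 2 is therefore low in a defining marker of skeletal muscle and high in a cardiac one. With 2 libraries, no let-7 difference below can be told apart from this difference in content. The 11 skeletal muscle markers together held 0.479% of replicate 2 and 14.7% of replicate 1, with Mir133c at 0 in both, and Mir206 made up nearly all of the replicate 1 sum. The 10 markers other than Mir206 ran the other way, at 0.476% and 0.0907%, a sum carried mainly by Mir499, Mir208b and Mir486. Mir1a and Mir133a are annotated as several copies each, and reads that map to several places are in no gene's count. Counts of these copies, such as 156 and 87 reads for Mir1a-2, are therefore uncertain. The sum does not show how Mir1a and Mir133a differed between the libraries. Of 8 tested, 3 were past the 2-fold threshold described below as higher in replicate 2 and 3 as lower. The higher ones were Mir499 (8633 reads in replicate 2 against 1953 in replicate 1), Mir208b (4340 against 1068) and Mir486 (1468 against 456), all of which are also known from heart or blood cells. The lower ones were Mir206, Mir133b (10 against 427) and Mir133a-1 (16 against 34). Endothelial markers held 6.62% and 2.54%, smooth muscle markers 4.90% and 2.17%, erythroid markers 0.0979% and 0.0220%, and white blood cell markers 0.429% and 0.0793%. Fibroblast markers held 0.281% and 0.591%, and neural markers 0.0417% and 0.142%. The 6 Mir9 and Mir124a genes had 0 reads in both libraries, but they are copies, and reads that map to several places were set aside. A count of 0 for them does not show absence. Liver Mir122 held 0.00875% and 0.0258%, and epithelial markers 0.0424% and 0.00401%. Of the genes tested, 0 of 1 endothelial and 0 of 2 smooth muscle genes were past the threshold. Past it as higher were 2 of 2 erythroid, 3 of 5 white blood cell and 3 of 5 epithelial genes. Past it as lower were 3 of 3 fibroblast, 3 of 3 neural, 1 of 1 liver and 1 of 5 white blood cell genes. Among them Mir199a-2 (12 reads in replicate 2 against 254 in replicate 1) and the neural Mir128 genes also have copies, so their counts carry the same limit. Most fibroblast reads were of Mir214 (8555 against 25804). The part of these marker differences in the let-7 values was not tested. In tissue RNA, fewer cells of a type and less RNA per cell cannot be told apart.

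The 6 let-7 genes together were a large fraction of both libraries. Their sense reads numbered 852607 in replicate 2 and 537088 in replicate 1, or 27.7% (exact Clopper-Pearson 95% interval 27.7 to 27.8%) and 12.0% (12.0 to 12.1%) of microRNA reads. The share was thus 2.30-fold higher in replicate 2, with a mean of 19.9% ± 11.1 (SD, n = 2). All of the genes but Mir98, 5 in number, were among the 20 most abundant microRNA genes of replicate 2, and 3 were in replicate 1. Shares are relative, and the imprinted Dlk1-Dio3 cluster took 0.973% of replicate 2 and 32.9% of replicate 1. With that cluster left out of the total, the 6 genes held 28.02% and 17.95%, a 1.56-fold difference. That total still includes Mir206, which alone took 0.00329% of replicate 2 and 14.6% of replicate 1. With the TMM scaling described below, the pooled reads of the 6 genes had a log2 ratio (replicate 2 over replicate 1) of 0.58.

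Mirlet7i and Mirlet7g, which differ from each other at 2 bases, were the most abundant. Mirlet7i had 312434 reads (101668 CPM) in replicate 2 and 242319 reads (54346 CPM) in replicate 1, and took ranks 2 and 5 of all microRNA genes. Mirlet7g had 261242 reads (85010 CPM) and 165712 reads (37165 CPM), in ranks 3 and 8. Together they made up most of the reads of the 6 genes, 67.3% in replicate 2 and 76.0% in replicate 1.

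Mirlet7d and Mirlet7b came next. Mirlet7d, the only form of the family shown here that starts with A, had 122232 reads (39775 CPM) in replicate 2 and 66583 reads (14933 CPM) in replicate 1. Mirlet7b had 116887 reads (38036 CPM) in replicate 2 and 35150 reads (7883 CPM) in replicate 1. In replicate 2 the levels of these genes were close, with 1.05 reads of Mirlet7d per read of Mirlet7b, while in replicate 1 there were 1.89.

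Mirlet7e and Mir98 were the least abundant. Mirlet7e had 31434 reads (10229 CPM) in replicate 2 and 13202 reads (2961 CPM) in replicate 1. Mir98 had 8378 reads (2726 CPM) in replicate 2 and 14122 reads (3167 CPM) in replicate 1, and was the only one of the 6 genes with a lower CPM in replicate 2. Mirlet7e stood above Mir98 in replicate 2, at 3.75 reads per read of Mir98, and just below it in replicate 1, at 0.935. The Mirlet7e counts exist only by strand, because the microRNA gene Gm25927 is annotated opposite it and Mirlet7e has 0 reads in the unstranded column. On the antisense strand Mirlet7b had 2 reads in each library, Mir98 had 0 in replicate 2 and 2 in replicate 1, and the other 4 genes had 0.

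The order of the means was Mirlet7i, Mirlet7g, Mirlet7d, Mirlet7b, Mirlet7e and Mir98, and the order within a library was the same but for the last pair in replicate 1. Mean CPM was 78007 ± 33462 for Mirlet7i, 61087 ± 33831 for Mirlet7g, 27354 ± 17566 for Mirlet7d, 22959 ± 21321 for Mirlet7b, 6595 ± 5139 for Mirlet7e and 2947 ± 312 for Mir98 (SD, n = 2 each). All 5 neighbouring pairs in this order overlapped in their CPM ranges over the libraries. Set side by side within each library, however, 4 of the 5 pairs stood in the same order in both, and Mirlet7e and Mir98 did not. Mirlet7i had 1.20 reads per read of Mirlet7g in replicate 2 and 1.46 in replicate 1, Mirlet7g had 2.14 and 2.49 per read of Mirlet7d, and Mirlet7b had 3.72 and 2.66 per read of Mirlet7e. Mirlet7i had 37.3 reads per read of Mir98 in replicate 2 and 17.2 in replicate 1. Since the mature forms have equal length, these counts compare per mature base as they stand. The counts do not separate the 5′ from the 3′ arm, and small RNA ligation is known to favour some ends over others, which was not measured here.

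**Figure D1:**
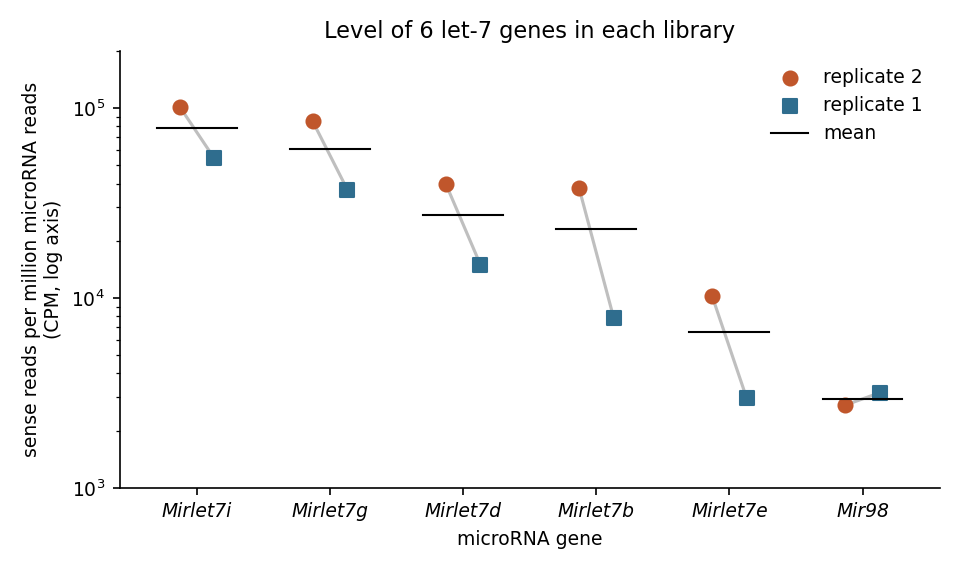
Level of each of the 6 let-7 genes in CPM (log axis), with replicate 2 as circles, replicate 1 as squares and the mean of both as a line. Replicate 2 is higher for all genes but Mir98, whose values are 2726 and 3167 CPM.

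Relative to the scaled library sizes, Mirlet7b and Mirlet7e were higher in replicate 2 and the other 4 genes were under the threshold. Log2 ratios are replicate 2 over replicate 1, scaled by TMM (trimmed mean of M values), and brackets hold 95% counting intervals. Past the threshold means a Benjamini-Hochberg adjusted p under 0.05 in an exact binomial test together with a log2 ratio of 1 or more, or −1 or less. Mirlet7b stood at 1.64 (1.63 to 1.66) and Mirlet7e at 1.16 (1.13 to 1.19). Mirlet7d stood at 0.79 (0.77 to 0.80), Mirlet7g at 0.57 (0.56 to 0.58), Mirlet7i at 0.28 (0.27 to 0.28) and Mir98 at −0.84 (−0.88 to −0.80). The intervals are narrow because the counts are high, and they cover counting error only.

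The count of 2 of 6 genes past the threshold, 2 higher and 0 lower, stands beside a large background. Of 410 genes tested, 53.7% were past it, 17.6% as higher and 36.1% as lower, and among the 84 genes with at least 1000 reads in each library 38.1% were. The median absolute log2 ratio was 0.81 for the 6 let-7 genes, 0.83 for those 84 genes and 1.25 for all genes tested. The 84 genes include the 6 let-7 genes. The let-7 genes were thus about as far apart between libraries as the set of abundant microRNA genes that holds them. Their median log2 ratio was 0.68, against 0.21 for the 84 genes and −0.33 for all genes tested. Mirlet7b, the gene farthest from 0, had 165 genes with larger absolute ratios, and Mirlet7i had 369. With the dispersion estimated from the pair itself (1.23, a biological coefficient of variation of 1.11), the edgeR exact test called 0 of the 6 genes, with unadjusted p from 0.54 to 0.92, 0 of them under 0.05. It called 0 of all 410 genes, with 28 at an unadjusted p under 0.05. That dispersion holds the very difference under test, and the libraries also differ in their tissue markers. A let-7 difference thus cannot be told apart from the spread between libraries or from their tissue content with this design.

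**Figure D2:**
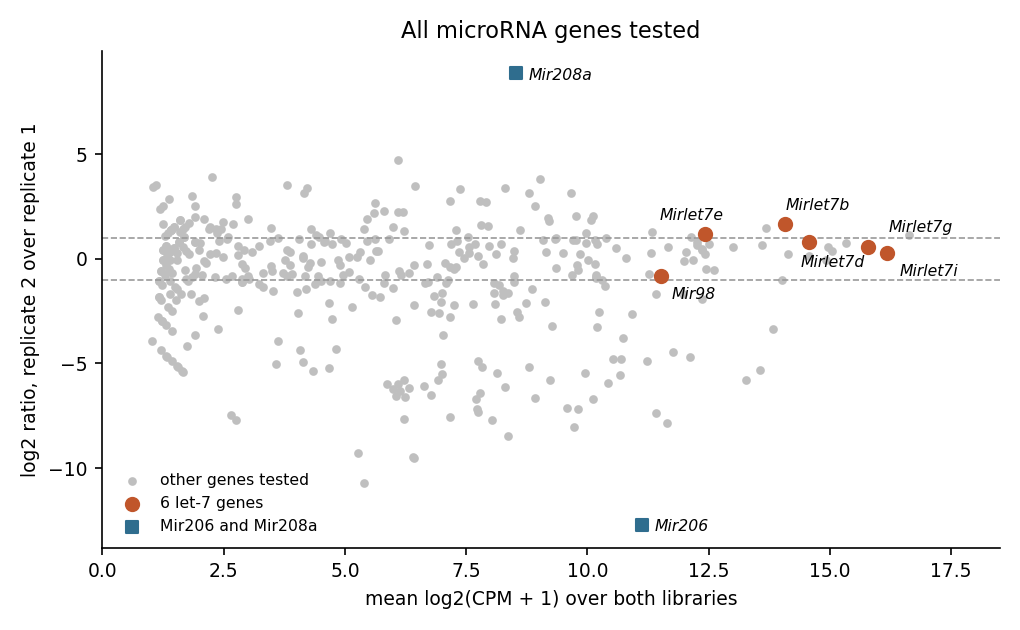
Log2 ratio of replicate 2 over replicate 1 against mean log2(CPM + 1) for the 410 genes tested, with dashed lines at ratios of 1 and −1. The 6 let-7 genes (circles) lie between −0.84 and 1.64, while Mir206 and Mir208a (squares) lie at −12.73 and 8.86.

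The scaling of the libraries changed which let-7 genes passed. With DESeq2 size factors or all mapped reads 3 of 6 were higher, Mirlet7d being added at 1.07 and 1.09. With total microRNA reads 4 were, with Mirlet7d at 1.41 and Mirlet7g at 1.19. With TMM computed without the Dlk1-Dio3 genes, the 2 calls were again Mirlet7b and Mirlet7e, at 1.51 and 1.03. Mirlet7b, Mirlet7e, Mirlet7d, Mirlet7g and Mirlet7i had positive ratios and Mir98 a negative one under all 5 scalings, with Mir98 between −0.98 and −0.22. These scalings moved the median of all genes tested by −0.13 to 0.59 from its TMM value.

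**Figure D3:**
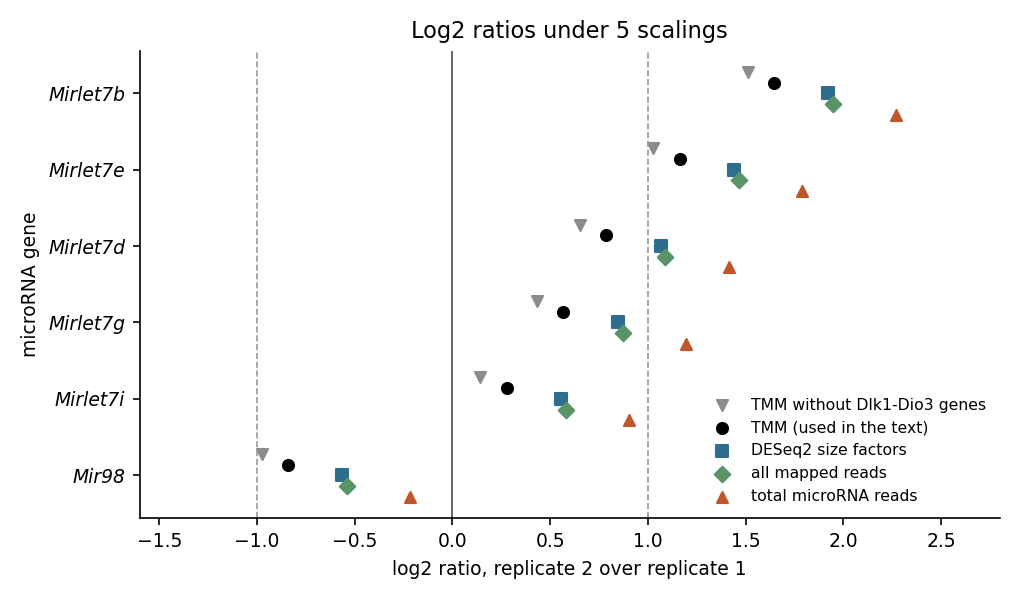
Log2 ratio of replicate 2 over replicate 1 for each of the 6 let-7 genes under 5 ways of scaling the libraries, with dashed lines at 1 and −1. A scaling moves all 6 genes by the same amount, so Mirlet7b is highest and Mir98 lowest under each, and Mirlet7d crosses 1 under 3 of them.

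The mix of let-7 genes, which no scaling of the libraries affects, also differed. Mirlet7b made up 13.7% (13.6 to 13.8%) of the reads of the 6 genes in replicate 2 and 6.54% (6.48 to 6.61%) in replicate 1. Mirlet7i made up 36.6% (36.5 to 36.7%) and 45.1% (44.98 to 45.3%). Replicate 2 minus replicate 1 was 7.16 percentage points for Mirlet7b and −8.47 points for Mirlet7i. These shares are relative, and the CPM of Mirlet7i was higher in replicate 2 (101668 against 54346). Mirlet7g was the steadiest, at 30.6% and 30.9%. Mirlet7d held 14.3% and 12.4%, Mirlet7e 3.69% and 2.46%, and Mir98 0.983% and 2.63%.

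**Figure D4:**
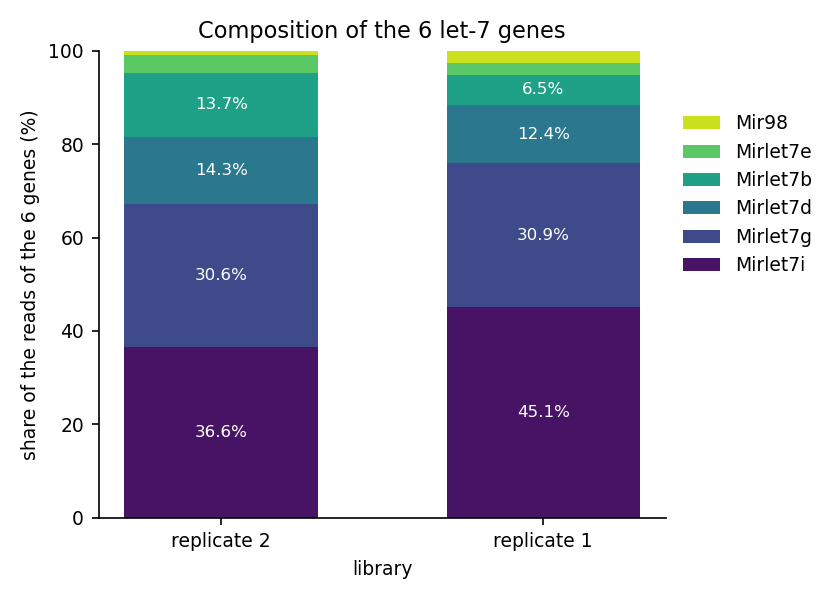
Share of the reads of the 6 let-7 genes held by each gene, as stacked bars for replicate 2 (left) and replicate 1 (right). Mirlet7b takes 13.7% and 6.54%, Mirlet7i 36.6% and 45.1%, and Mirlet7g stays at 30.6% and 30.9%.

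Pairs of let-7 genes were compared by the difference of their log2 ratios, 15 pairs in all. In 7 pairs the difference was at least 1 with a Fisher's exact test adjusted p under 0.05, and in all 15 the adjusted p was under 0.05 (largest 6.27e-117), which measures counting error only. The 5 pairs with Mir98 were all among the 7. Mirlet7b and Mir98 were farthest apart at 2.49 (2.44 to 2.53), with 13.95 reads of Mirlet7b per read of Mir98 in replicate 2 and 2.49 in replicate 1. The other 2 were Mirlet7b against Mirlet7i, at 1.37 (1.35 to 1.39), and against Mirlet7g, at 1.08 (1.06 to 1.10). Mirlet7d and Mirlet7g were the closest pair, at 0.22 (0.20 to 0.24).

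The let-7 genes were also set beside the microRNA genes within 10 kb on the same strand, which may share a primary transcript. Mirlet7e lies between Mir99b, 95 bp away, and Mir125a, 368 bp away, conserved partners of let-7. Mir99b had 28036 reads in replicate 2 and 16391 in replicate 1, a log2 ratio of 0.68, and Mir125a had 24444 and 13329, a log2 ratio of 0.79. All 3 had more reads in replicate 2. Mirlet7e exceeded Mir99b by 0.48 (0.44 to 0.52) and Mir125a by 0.38 (0.33 to 0.42) in log2 ratio, both under the 2-fold minimum.

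The other neighbours are copies of let-7a, let-7c and let-7f. Mir98 lies 786 bp from Mirlet7f-2, which had 10667 reads in replicate 2 and 8256 in replicate 1. The log2 ratio of Mir98 was 1.12 below that of Mirlet7f-2 (difference −1.12, −1.18 to −1.07), so these neighbours within Huwe1 had ratios of opposite sign, Mirlet7f-2 standing at 0.28 and Mir98 at −0.84, neither past the threshold. Mirlet7b lies 622 bp from Mirlet7c-2, which had 1544 and 1119 reads. Its ratio was above that of Mirlet7c-2 by 1.27 (1.16 to 1.38). Mirlet7d lies within 2065 bp of Mirlet7a-1, with 787 and 617 reads, and 1715 bp from Mirlet7f-1, with 333 and 580 reads. Its ratio exceeded theirs by 0.53 (0.37 to 0.68) and 1.68 (1.48 to 1.87). Mature let-7a, let-7c and let-7f come from several loci, so reads of these copies that map to several places were set aside and their counts are uncertain. What remains may be products of the hairpin other than the mature form, which could be counted for Mir98, Mirlet7b and Mirlet7d. These differences may thus compare unlike products.

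**Figure D5:**
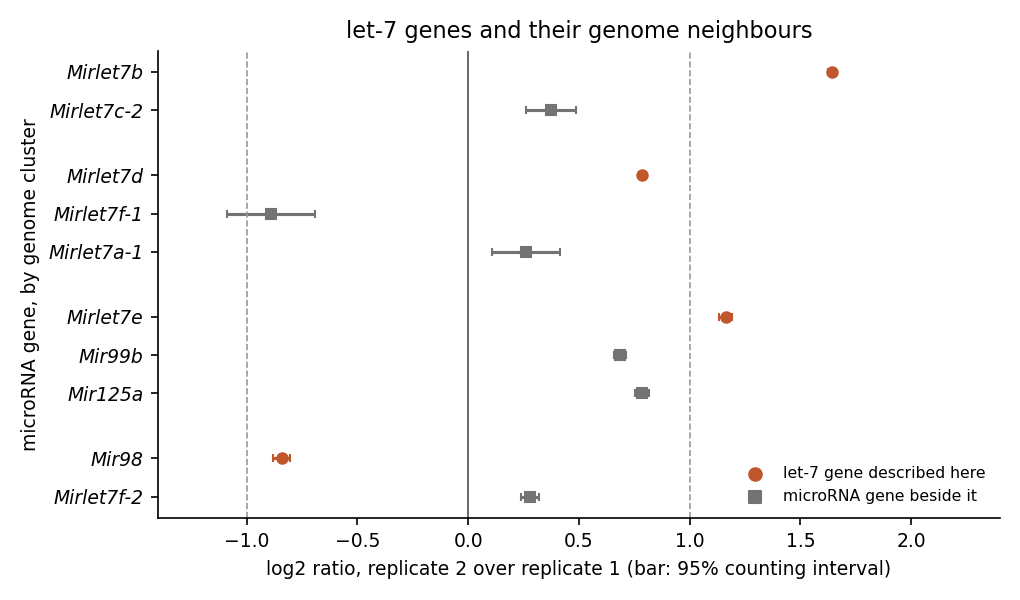
Log2 ratio of replicate 2 over replicate 1 for 4 let-7 genes (circles) and the microRNA genes beside them on the same strand (squares), grouped by cluster, with 95% counting intervals as bars and dashed lines at 1 and −1. Mirlet7e lies 0.38 to 0.48 above its neighbours, while Mir98 and Mirlet7f-2 lie on opposite sides of 0.

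Nearly all let-7 reads that could be placed came from the 6 genes. They held 98.3% of the reads of 15 annotated let-7 genes and genes with the let-7 seed in replicate 2, and 97.9% in replicate 1. The other 9 were the paired copies Mirlet7f-1 and Mirlet7f-2, Mirlet7c-1 and Mirlet7c-2, Mirlet7a-1 and Mirlet7a-2, along with Mir7j, Mir7k and Mir1961. Of these, 7 were tested and 0 were past the threshold, with log2 ratios from −0.89 to 0.37 and a median of 0.04. Mir7k and Mir1961 had 0 reads in both libraries, which allows up to 0.976 CPM in replicate 2 and 0.673 CPM in replicate 1. Reads set aside for mapping to several places numbered 3266711 in replicate 2 and 3039284 in replicate 1, or 1.06 and 0.682 for each read assigned to a microRNA gene. How many of them were let-7a, let-7c or let-7f was not analysed here, so the share of the whole let-7 family is not given by these counts.

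The Mir99, Mir100 and Mir125 genes, which sit beside let-7 genes at several loci, held 5.41% of replicate 2 and 2.94% of replicate 1. Of 6 tested, 0 were higher and 1, Mir125b-1, was lower at −1.52, with a median log2 ratio of 0.02. Mir125b-1 (692 and 1871 reads) and Mir125b-2 (472 and 589) are copies, and reads that map to several places were set aside. Their counts are thus uncertain, and so are this call, the median and the pooled shares. Outside the family, the microRNA gene nearest to each let-7 gene in log2 ratio and mean log2 CPM was taken from 171 genes with at least 1000 reads, over 2 libraries. It was Mir22 for Mirlet7b (distance 0.44), Mir151 for Mirlet7e (0.32), Mir143 for Mirlet7d (0.45), Mir126a for Mirlet7g (0.49), Mir378a for Mirlet7i (0.95) and Mir17 for Mir98 (0.27).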

How the data were processed

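The files hold, per library, the authors' raw counts of reads on each microRNA gene, in unstranded, sense and antisense columns. Assembly mm10 and annotation GENCODE M21 are per the file headers of the deposited description files. Multimapping reads have a summary line of their own and are in no gene's count. Aligner, version and trimming: not given in the sources used here. The 4 summary lines name no gene and were left out throughout. Multimapping reads were 45.1% of replicate 2 and 35.7% of replicate 1, unmapped reads 8.60% and 9.97%, and unannotated reads 3.83% and 2.05%. All 2202 gene identifiers matched GENCODE M21.

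The sense column was used. Library sizes came from TMM over genes with at least 10 reads in total (edgeR 4.0.16, R 4.3.3), and log2 ratios have a prior count of 1. Genes with at least 10 reads were given a two-sided exact binomial test with Benjamini-Hochberg adjustment over all of them. With 1 group of 2 libraries, the quasi-likelihood test of edgeR has no residual degrees of freedom between libraries. Pairs of genes were compared by Fisher's exact test, adjusted over 15 pairs, with Woolf intervals for tables of high counts and conditional exact ones otherwise. Intervals, and the limit of 3 counts behind a count of 0, cover counting error only, since PCR copies are not separate molecules. Alternatives used DESeq2 1.42.0 size factors, other library totals, other minimum counts, another prior count and the unstranded column. Python 3.11.15, numpy 2.4.6, scipy 1.17.1, pandas 2.3.3 and matplotlib 3.10.9 were used.

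Named genes are all 6 genes, the other let-7 genes and seed sharers, microRNA genes within 10 kb, the Mir99, Mir100 and Mir125 genes, the nearest gene of each and the markers Mir206 and Mir208a. Genes and lists were chosen with earlier results of these data known.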

Additional observations from a re-analysis of the deposited data

Results flagged for a closer look

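The antisense column held reads outside the sense comparison. Gm25927, annotated on the strand opposite Mirlet7e, had 31434 antisense reads in replicate 2 and 13202 in replicate 1, the same numbers as the sense reads of Mirlet7e. Gm24111, opposite Mirlet7f-1, had 333 and 580, the same as the sense reads of Mirlet7f-1. Both had 0 sense reads in each library. In the unstranded column, where reads over such overlaps count as ambiguous, Mirlet7e stood at 0 reads in both libraries.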

How the results depend on the processing

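The count of let-7 genes past the threshold, 2 of 6, was 3 with DESeq2 size factors and with all mapped reads, 4 with total microRNA reads, 1 with the unstranded column, where Mirlet7e had no reads left to test, and 0 with the edgeR exact test and pooled dispersion, which also called 0 of all genes. Mirlet7d passed at 1.07 with DESeq2 size factors, 1.09 with all mapped reads and 1.41 with total reads, and Mirlet7g at 1.19 with total reads. No log2 ratio of the 6 genes that could be tested changed sign under any of the 9 other settings of scaling, strand, prior count or minimum count. Over these, all genes past the threshold numbered 158 to 250, against 220. The share of those calls that were higher was 32.7% with TMM, 44.1% with DESeq2 size factors, 45.7% with all mapped reads and 54.0% with total reads; it was 42.0% with TMM over every gene of the table, an alternative chosen after seeing the data. With the unstranded column Mirlet7e made up 0% and Mirlet7g 31.7% of the reads of the 6 genes as a mean of both libraries. The let-7 share of microRNA reads was 27.7% without replicate 1 and 12.0% without replicate 2. Of all mapped reads the 6 genes held 12.9% in replicate 2 and 7.0% in replicate 1. Of 15 pairs, 10 were apart with a fold minimum of 1.5, and 6 of 10 testable pairs with the unstranded column. No paired analysis was possible because there is 1 group. Depth does not limit the 6 genes, which had 8378 reads or more per library, but 2 libraries limit every comparison.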
